A study of Mus musculus with 24 samples.

Results

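The 42 genes described here encode proteins of the lysosome: proteins of its membrane, the hydrolases in its lumen, subunits of the proton pump that acidifies it and 3 transcription factors of the family that controls lysosomal genes. They form a list of mouse symbols, each matched through its Ensembl identifier to a row of the deposited expression table, and 42 of the 42 were found among the 17301 genes of that table. By role, 8 are membrane proteins, 7 are hydrolases of glycogen, glycoproteins and oligosaccharides, 6 are hydrolases of glycosaminoglycans, 9 are hydrolases, activators or carriers of lipids, 4 are proteases, a thioesterase and granulin, 3 are transcription factors and 5 are subunits of the vacuolar proton pump (V-ATPase). All 42 passed the filter on low values (a mean of at least 1 RPKM, which divides reads by the length of a gene and the size of its library, in at least 1 group), which left 12878 genes for testing.

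The cells came from 2 tissues: the colon lamina propria (LP), taken from C57BL/6J animals, and tumours of the colon, taken from Apc Min/+ animals with 1 mutant allele of the tumour suppressor Apc. Each population was isolated by flow cytometry. Both groups consisted of young adult mice of either sex, tumours were induced with the help of dextran sodium sulphate (DSS), and the study's text describes DSS also for the C57BL/6J mice, whose tissue the labels call healthy. By that text the genotypes received different concentrations of DSS. In each tissue the populations were F4/80hi MHCIIhi macrophages, F4/80hi MHCIIlow macrophages, monocytes (Ly6Chi MHCII-) and neutrophils (Ly6Ghi), with 3 libraries each, 24 in all, and each library held cells pooled from several mice. LP and tumours were also digested by different protocols and enriched on different Percoll gradients, so tissue, Apc genotype, DSS treatment and preparation cannot be told apart in any comparison of tumour with LP. Libraries are named below by the Roman numeral of their donor pool.

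Lysosomes break down material that a cell takes up or recycles. The V-ATPase pumps protons into the lumen, the hydrolases work best at the acid pH that results, and the membrane proteins protect the boundary and carry products and ions across it. In macrophages this compartment digests phagocytosed cells, debris and lipids, whereas neutrophils keep many of their degradative enzymes in granules. TFEB, TFE3 and MITF are basic helix-loop-helix factors that bind E-box letters in the promoters of many lysosomal genes, among them the palindrome CACGTG and its longer form TCACGTGA.

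Because TFEB, TFE3 and MITF bind E-box letters, the members' promoter windows (250 bases before to 50 after each start, RefSeq, GRCm38.p6) were searched for them. A window was found for 37 of the 42 genes, and 12 of these (32.4%) held CACGTG, beside 8.09% of all 27025 genes with a window. That background was not limited to genes expressed in these cells, as the 42 are. TCACGTGA, which contains CACGTG, was found in 5 of the 37 (13.5%: Atp6v0d1, Atp6v1a, Cln3, Gla and Mcoln1), beside 1.12% of all genes. Both motifs are their own reverse complement, so both strands were covered. A match is a description of letters and not a bound site. The stretches below belong to genes whose values the results turn on, with CACGTG in capitals: Gla and Atp6v1a were lower in tumour macrophages, Lgmn and Gaa were lower in tumour neutrophils, Lamp1 holds 4 copies, and Naglu was higher in macrophages than in monocytes. Each is 100 bases, written 5′ to 3′ on the gene's strand.
Gla (chrX:134601156-134601255, minus strand): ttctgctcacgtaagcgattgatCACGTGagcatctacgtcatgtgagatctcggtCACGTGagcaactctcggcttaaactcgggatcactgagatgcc
Atp6v1a (chr16:44139338-44139437, minus strand): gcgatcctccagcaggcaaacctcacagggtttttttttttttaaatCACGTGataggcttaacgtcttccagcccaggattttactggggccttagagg
Lgmn (chr12:102439093-102439192, minus strand): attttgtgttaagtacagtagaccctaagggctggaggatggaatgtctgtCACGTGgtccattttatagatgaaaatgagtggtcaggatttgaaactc
Gaa (chr11:119267776-119267875, plus strand): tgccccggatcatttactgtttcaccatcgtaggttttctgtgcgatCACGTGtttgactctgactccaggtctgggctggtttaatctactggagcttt
Lamp1 (chr8:13159061-13159160, plus strand): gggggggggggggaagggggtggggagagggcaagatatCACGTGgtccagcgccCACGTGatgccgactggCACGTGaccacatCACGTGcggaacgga
Naglu (chr11:101069974-101070073, plus strand): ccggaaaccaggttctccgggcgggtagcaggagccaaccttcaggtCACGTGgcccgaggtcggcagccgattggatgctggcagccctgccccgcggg

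Depth ran from 12838061 to 41718078 reads on genes per library, with a median of 26389148. The summed level of 8 macrophage markers was 3471 to 7455 RPKM in the macrophage libraries and at most 807 RPKM elsewhere, and 8 neutrophil markers summed to 11437 RPKM or more in every neutrophil library and at most 148 RPKM in the others. The 5 monocyte markers summed to 323 to 660 RPKM in monocytes and at most 19.1 RPKM in macrophages, but to 571 to 985 RPKM in neutrophils, so they did not separate monocytes from neutrophils. MHC class II markers (5 genes) summed to 39016 to 45700 RPKM in LP MHCIIhi and 878 to 3885 RPKM in LP MHCIIlow macrophages. In tumours the subsets were closer, with 16706 to 41126 RPKM in MHCIIhi and 2121 to 9862 RPKM in MHCIIlow macrophages. The scale bears on the neutrophils, since the library sizes behind the deposited values were 0.466 to 0.682 times the recovered reads in neutrophil libraries and 0.981 to 1.51 times in the others. Calls that held under 4 scalings (as deposited, libraries centred on their median, quantile normalization, and sizes set to the summed reads) are therefore counted beside the main counts.

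Together the 42 genes took the largest share of reads in macrophages. They held 3.34 to 3.37% of reads in LP MHCIIhi and 3.42 to 3.92% in tumour MHCIIhi macrophages, with no overlap between these tissues, but the summed RPKM on the deposited scale did overlap (10098 to 10446 in LP and 9417 to 11052 in tumour). The share was 2.36 to 2.71% in LP MHCIIlow and 3.37 to 3.74% in tumour MHCIIlow macrophages, where the summed RPKM also parted (6086 to 6827 in LP and 7945 to 9918 in tumour). In monocytes it was 2.23 to 2.29% in LP and 1.88 to 2.05% in tumour, and in neutrophils 1.17 to 1.20% in LP and 0.825 to 0.837% in tumour. The summed RPKM overlapped between tissues in both, at 5692 to 6475 in tumour and 6139.6 to 7081 in LP monocytes, and at 4633 to 4821 in tumour and 4744 to 5154 in LP neutrophils. In monocytes a further measure had the opposite direction: the median over the 42 genes of log2 RPKM, each gene centred on its mean over all libraries, was -0.46 to -0.36 in LP and -0.33 to -0.16 in tumour, and 29 of the 42 differences were positive. By this measure MHCIIlow macrophages overlapped between tissues, at 0.30 to 0.36 in LP and 0.26 to 0.74 in tumour. MHCIIhi macrophages (0.35 to 0.51 and 0.61 to 0.71) and neutrophils (-0.29 to -0.12 and -0.44 to -0.33) did not overlap. Psap alone made up 1114 to 1587 RPKM of the LP MHCIIlow sums and 2720 to 3378 RPKM of the tumour ones. No test was run on these measures. Reads are shares of a library: fewer cells of a type and less RNA per cell cannot be told apart in bulk samples.

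**Figure D1:**
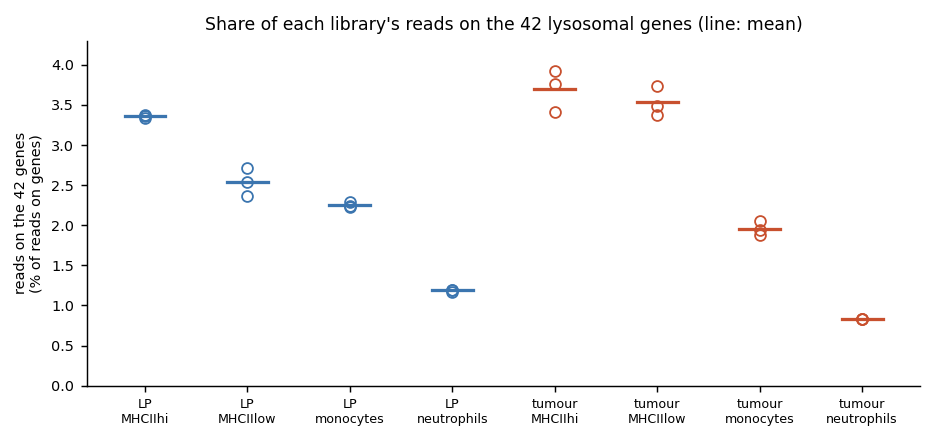
Percent of each library's reads on genes that fell on the 42 lysosomal genes, by group (circles: 3 libraries each; lines: group means; blue LP, red tumour; the axis starts at 0). Macrophages lie between 2.36 and 3.92%, tumour above LP in both subsets, and neutrophils are lowest at 0.825 to 1.20%.

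Psap and Lgmn had the highest levels in macrophages. Psap, the precursor of the saposins that activate sphingolipid hydrolases, averaged 3480.3 RPKM in LP MHCIIhi and 3547 RPKM in tumour MHCIIhi macrophages, and Lgmn, the lysosomal cysteine protease legumain, 1865 and 1703 RPKM. Lamp1 and Cd68, glycoproteins of the lysosomal membrane, Laptm5, a membrane adaptor of blood cells, Grn (granulin) and Hexa (the alpha subunit of beta-hexosaminidase) followed, with group means of 301 RPKM or more in macrophages. At the other end Ids and Arsb, hydrolases of glycosaminoglycans, were the lowest by their highest group mean, 3.82 RPKM for Ids and 1.28 RPKM for Arsb.

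**Figure D2:**
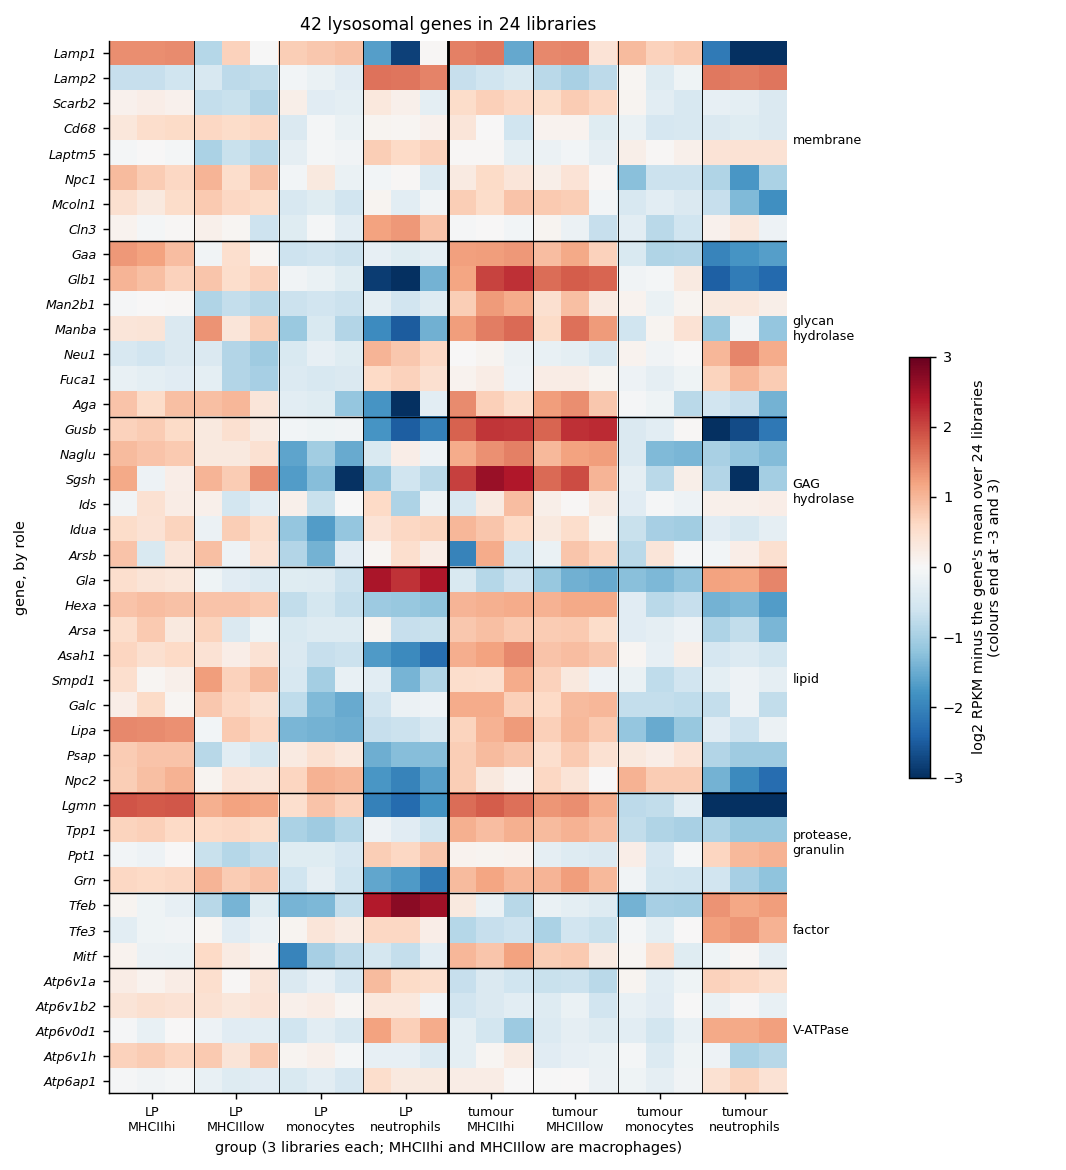
Heat map of log2 RPKM of the 42 genes (rows, by role) in 24 libraries (columns, 3 per group), each gene centred on its mean over all libraries; red is higher, blue lower, and colours end at 3 either way. Most hydrolases are red in macrophages, and Lamp2, Gla, Tfeb and Atp6v0d1 are red in neutrophils. The median centred value over the 42 genes was below the mean in both other populations. It was -0.46 to -0.36 in LP monocytes and -0.29 to -0.12 in LP neutrophils, and -0.33 to -0.16 and -0.44 to -0.33 in tumour.

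The first comparison asks how tumour macrophages differed from LP macrophages. In the MHCIIhi subset 9 of the 42 genes were higher in tumours, 21.4% of them beside 8.01% of all genes tested, and 7 were lower, 16.7% beside 11.5%. In the MHCIIlow subset 13 were higher (31.0% beside 11.5% of all genes) and 6 lower (14.3% beside 11.8%). The median difference over the 42 was 0.14 in MHCIIhi and 0.32 in MHCIIlow macrophages, on the log2 RPKM scale (tumour minus LP), beside 0.00 and 0.06 over all genes. Of the calls, 6 higher and 6 lower in MHCIIhi and 10 higher and 6 lower in MHCIIlow macrophages held under every scaling. For MHCIIhi macrophages the split was 16 higher and 7 lower under quantile normalization, 14 and 6 with sizes set to the summed reads, and 6 and 7 with libraries centred on their median. The MHCIIhi count rested on single libraries: it fell from 16 to 10 without LP library III, to 8 without LP library V and to 10 without tumour library VII. Fibroblast markers (5 genes) summed to 6.43 to 19.1 RPKM in LP and 0.177 to 1.17 RPKM in tumour MHCIIhi macrophages, and to 18.3 to 51.7 RPKM and 0.318 to 0.644 RPKM in the MHCIIlow subset. T cell markers (5 genes, of which Cd8a had at most 3 reads in every macrophage library) summed to 78.3 to 88.9 RPKM in LP and 46.1 to 57.2 RPKM in tumour MHCIIhi macrophages, and to 35.6 to 58.1 RPKM and 19.5 to 28.1 RPKM in the MHCIIlow subset. In MHCIIhi macrophages monocyte markers summed to 15.6 to 19.1 RPKM in LP and 7.69 to 11.7 RPKM in tumour. Dendritic cell markers there summed to 3.08 to 4.77 and 0.027 to 1.75 RPKM. In the MHCIIlow subset macrophage markers summed to 3471 to 4220 and 4505 to 6351 RPKM, and neutrophil markers to 23.4 to 31.9 and 32.8 to 43.7 RPKM. Erythroid markers summed to 0.034 to 0.108 RPKM in LP and 1.10 to 8.60 RPKM in tumour macrophages. The part of these lists in the differences was not tested.

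The counts by role are read against 8.01% higher and 11.5% lower of all genes in MHCIIhi and 11.5% higher and 11.8% lower in MHCIIlow macrophages, and differences between roles were not tested. The hydrolases of glycogen, glycoproteins and oligosaccharides had positive differences for all 7 genes in both subsets, with 3 of 7 called higher in MHCIIhi and 5 of 7 in MHCIIlow macrophages, and medians of 0.47 and 0.77. Without LP library V the Manba and Neu1 calls were lost in MHCIIhi macrophages. Without LP library III the Glb1 and Neu1 calls were lost in the MHCIIlow subset. Of the V-ATPase genes, a small role of 5, 4 were called lower in MHCIIhi and 3 in MHCIIlow macrophages, with medians of -0.70 and -0.79. The Atp6v0d1 call in MHCIIhi macrophages was kept in 11 of 15 alternatives (adjusted p up to 0.14). It was lost without LP libraries III or V or tumour library VII and in a fit of these groups alone. The Atp6v1h call there was lost without tumour library I (0.0637). Glycosaminoglycan hydrolases had 1 and 2 of 6 called higher, lipid genes 2 higher and 1 lower of 9 in each subset, and the protease, thioesterase and granulin group 1 and 2 of 4 called higher, counts too small to set against those shares.

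**Figure D3:**
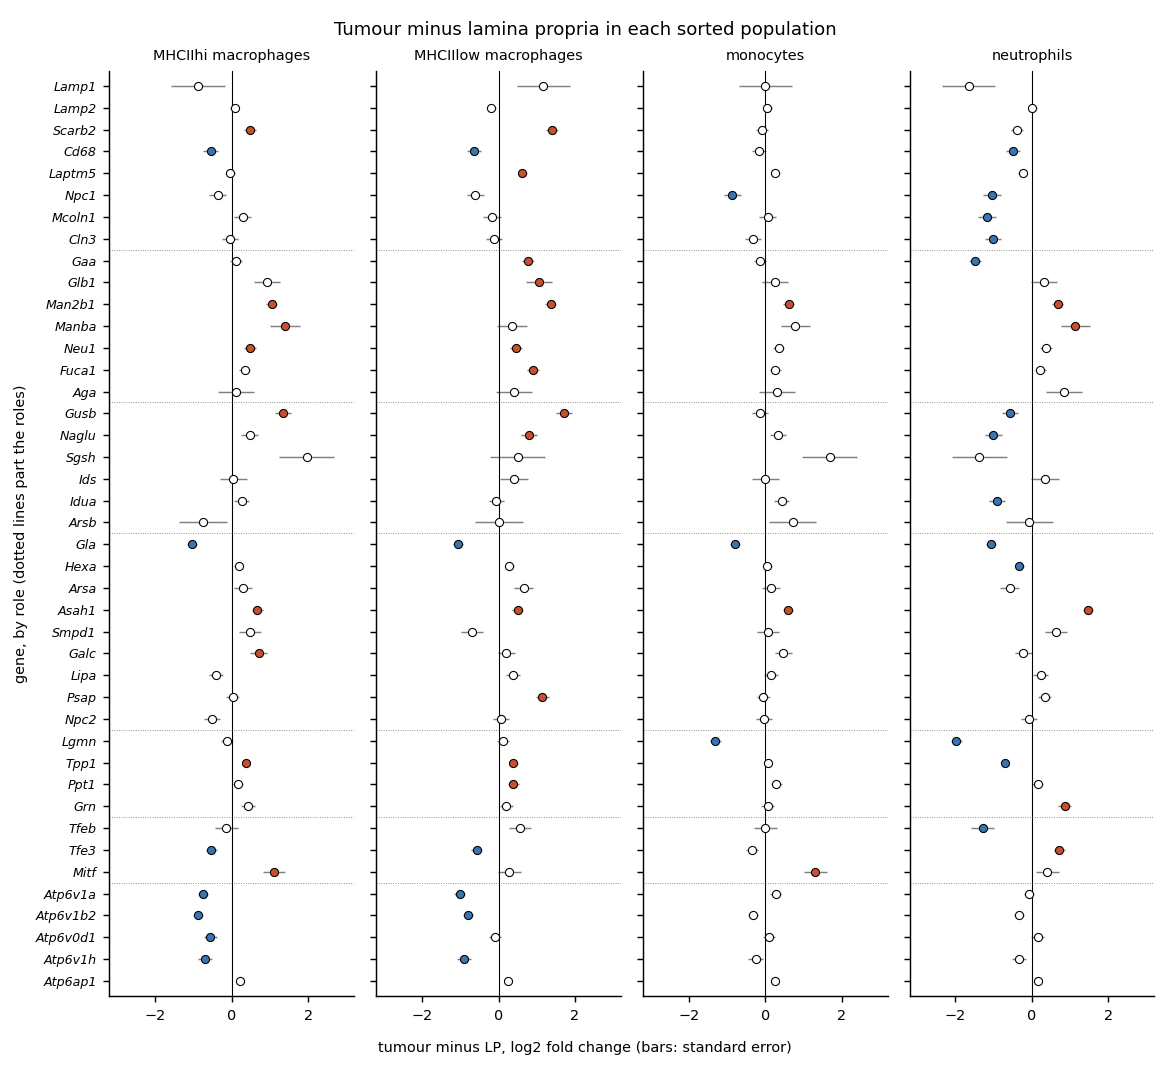
Tumour minus LP log2 fold change of each of the 42 genes (rows, by role) in the 4 populations; bars are standard errors, red points were called higher, blue points lower, and white points passed no threshold (adjusted p of 0.05). In both macrophage panels most coloured hydrolase points lie right of 0 and the coloured V-ATPase points lie left of it; the monocyte panel has 6 coloured points.

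Gusb, the beta-glucuronidase that trims glycosaminoglycans, was at 51.9, 54.8 and 47.9 RPKM in the LP MHCIIhi libraries and 110.3, 143 and 139.8 RPKM in the tumour ones. In MHCIIlow macrophages it was at 39.6, 45.2 and 38.4 RPKM in LP and 109, 147 and 153 RPKM in tumour. The tumour libraries all exceeded the LP libraries, and the difference was 1.34 ± 0.21, adjusted p = 0.000136 in MHCIIhi and 1.71 ± 0.21, adjusted p = 6.15e-06 in MHCIIlow macrophages (log2 fold change ± standard error, limma). It was the most raised gene of the list in MHCIIlow macrophages.

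Man2b1, a lysosomal alpha-mannosidase, followed the same course. Its levels were 141, 146 and 149 RPKM in LP and 242, 351 and 315 RPKM in tumour MHCIIhi macrophages. In the MHCIIlow subset they were 77.7, 87.6 and 81.2 RPKM in LP and 201.5, 269 and 174 RPKM in tumour. Neither pair of groups overlapped, and the differences were 1.04 ± 0.15, adjusted p = 4.11e-05 and 1.36 ± 0.15, adjusted p = 1.31e-06. Manba, the beta-mannosidase, was a weaker gene of the same pathway, at 4.65, 4.70 and 2.68 RPKM in LP and 8.60, 10.5 and 11.7 RPKM in tumour MHCIIhi macrophages (1.39 ± 0.39, adjusted p = 0.0141). The Manba call was lost without LP library V, where the adjusted p was 0.0836, and without tumour library VII.

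In MHCIIlow macrophages Scarb2, the membrane receptor that delivers beta-glucocerebrosidase to lysosomes, was at 33.7, 34.9 and 30.2 RPKM in LP and 81.4, 93.7 and 85.3 RPKM in tumour. The tumour libraries lay well above the LP ones without overlap (1.40 ± 0.16, adjusted p = 2.33e-06). Psap was at 1114, 1587 and 1358 RPKM in LP and 2816, 3378 and 2720.0 RPKM in tumour MHCIIlow macrophages, again without overlap, while in the MHCIIhi subset it was at 3325, 3577 and 3539 RPKM in LP and 3304, 3809 and 3529 RPKM in tumour and the groups overlapped. Scarb2 was called higher in the MHCIIhi subset too, a call lost without any 1 of the 6 libraries compared (adjusted p up to 0.114) and kept in 7 of 15 alternatives. Other genes called higher in both subsets were Asah1 (acid ceramidase), Neu1 (sialidase) and Tpp1 (tripeptidyl peptidase), with smaller differences. The Neu1 call was kept in 9 of 15 alternatives in each subset (adjusted p up to 0.112 in MHCIIhi and 0.173 in MHCIIlow macrophages), and the Tpp1 call in 10 and 12 of 15. Laptm5, Gaa (acid alpha-glucosidase), Naglu, Fuca1, Glb1 (beta-galactosidase) and Ppt1 were called higher in the MHCIIlow subset and Manba, Galc and Mitf in the MHCIIhi subset; the difference between subsets was tested and is given below. The Galc call was kept in 10 of 15 alternatives (adjusted p up to 0.13) and lost without LP libraries III or V or tumour libraries I or V and in a fit of these groups alone. The Glb1 and Ppt1 calls were lost without any 1 of the 6 MHCIIlow libraries compared, and were kept in 9 and 6 of 15 alternatives (adjusted p up to 0.0856 and 0.144).

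The falling genes were led by Gla and the pump. Gla, the alpha-galactosidase A that removes galactose from globosides, was at 87.2, 79.5 and 76.9 RPKM in LP and 44.5, 33.7 and 39.9 RPKM in tumour MHCIIhi macrophages. In MHCIIlow macrophages it was at 55.7, 48.2 and 46.1 RPKM in LP and 27.6, 22.6 and 21.5 RPKM in tumour. The tumour libraries had close to 1 log2 unit less with no overlap in either subset (-1.05 ± 0.13, adjusted p = 1.05e-05 and -1.07 ± 0.13, adjusted p = 6.03e-06).

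Atp6v1a, the catalytic A subunit of the pump's V1 sector, was at 105, 97.4 and 106 RPKM in LP and 56.4, 67.5 and 59.9 RPKM in tumour MHCIIhi macrophages. In the MHCIIlow subset it was at 129, 93.1 and 116 RPKM in LP and 57.2, 57.4 and 51.3 RPKM in tumour. Tumour libraries were lower throughout, and the differences were -0.75 ± 0.14, adjusted p = 0.00058 in MHCIIhi and -1.02 ± 0.14, adjusted p = 1.77e-05 in MHCIIlow macrophages. Atp6v1b2, the B subunit beside it, was at 121, 128 and 124 RPKM in LP and 61.6, 68.1 and 73.8 RPKM in tumour MHCIIhi macrophages (-0.88 ± 0.13, adjusted p = 4.81e-05). Atp6v1h, the regulatory H subunit, was at 22.9, 17.4 and 22.8 RPKM in LP and 10.5, 11.2 and 11.6 RPKM in tumour MHCIIlow macrophages (-0.91 ± 0.18, adjusted p = 0.00101). None of these groups overlapped. Atp6ap1, an accessory subunit, did not share the direction: it averaged 196 RPKM in LP and 228 RPKM in tumour MHCIIhi macrophages.

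**Figure D4:**
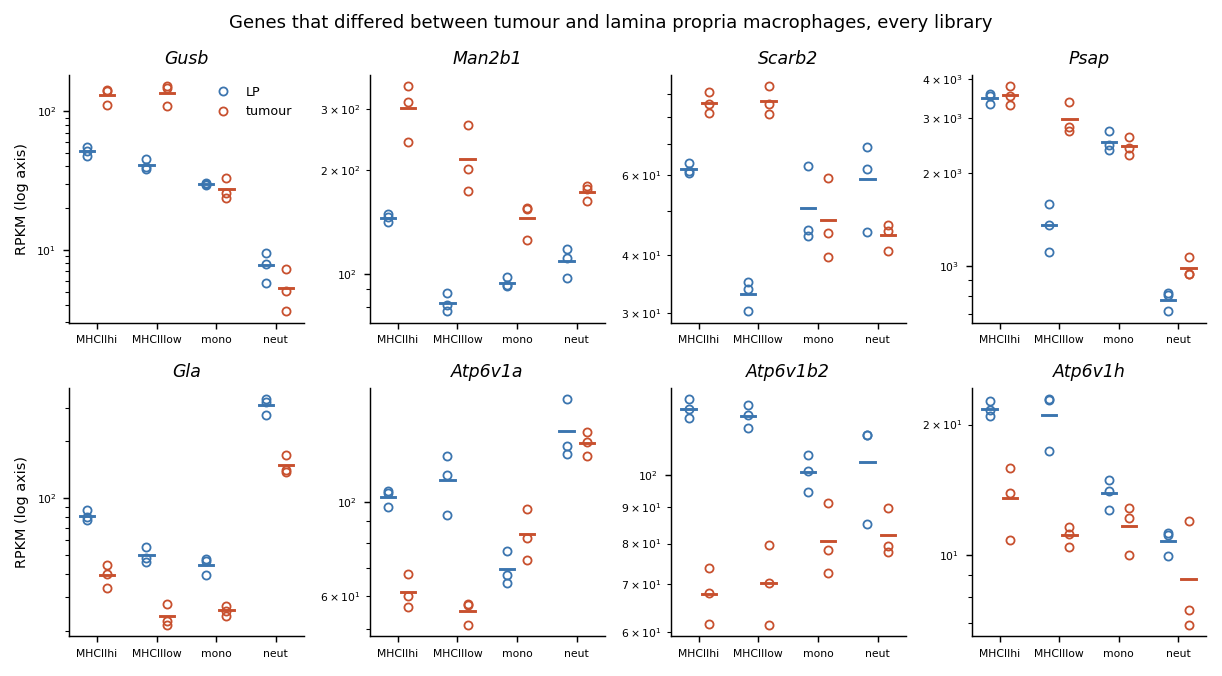
RPKM (log axis, its range set for each gene) of 8 genes in every library of the 4 populations (circles; lines: group means; blue LP, red tumour; mono, monocytes; neut, neutrophils). Gusb, Man2b1 and Scarb2 are higher and Gla, Atp6v1a, Atp6v1b2 and Atp6v1h lower in tumour macrophages, and Psap differs in the MHCIIlow subset.

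Among membrane proteins Cd68, the scavenger-receptor relative used to mark macrophages, was called lower in both tumour subsets, with a mean of 505 RPKM against 717 RPKM in MHCIIhi and 502 against 778 RPKM in MHCIIlow macrophages. The MHCIIhi groups overlapped. The calls were kept in 9 of 15 alternatives in MHCIIhi and 13 of 15 in MHCIIlow macrophages, with the highest adjusted p without tumour library VII of each subset (0.272 and 0.0922). The MHCIIhi call was also lost without LP libraries III, IV or V or tumour library V and in a fit of these groups alone. Lamp1, the most abundant of them in LP MHCIIhi macrophages, was not called in either subset. Its libraries spread widely, at 158, 463 and 283 RPKM in LP MHCIIlow and 813, 859 and 99.7 RPKM in tumour MHCIIhi macrophages, with tumour library VII far below the rest of its group. Of the exon bases of Lamp1, 9.31% lie opposite Grtp1 and the libraries do not mark strand, so reads there cannot be assigned to either gene.

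The transcription factors were weakly expressed and did not move as 1 group. Tfe3 was at 15.9, 18.1 and 18.5 RPKM in LP and 11.0, 12.2 and 12.9 RPKM in tumour MHCIIhi macrophages, and at 20.7, 15.6 and 17.6 RPKM and 10.2, 13.4 and 12.6 RPKM in the MHCIIlow subset. It was lower in tumours without overlap (-0.54 ± 0.15, adjusted p = 0.0144 and -0.57 ± 0.15, adjusted p = 0.00779). The MHCIIhi call was lost with sizes set to the summed reads (adjusted p = 0.0612), without tumour library I (0.061) and without LP libraries IV or V. The MHCIIlow call was lost without LP library II (0.0503) and in a fit of these groups alone (0.0606). Mitf was at 2.92, 2.39 and 2.38 RPKM in LP and 5.40, 4.86 and 6.26 RPKM in tumour MHCIIhi macrophages (1.10 ± 0.30, adjusted p = 0.0123), a call lost without tumour library VII (0.0543). Its difference in MHCIIlow macrophages was 0.28 ± 0.30, adjusted p = 0.557. Tfeb differed by -0.14 ± 0.30, adjusted p = 0.806 in MHCIIhi and by 0.56 ± 0.30, adjusted p = 0.19 in MHCIIlow macrophages.

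In monocytes 3 of the 42 genes were higher in tumours (7.14% beside 4.86% of all genes) and 3 lower (7.14% beside 4.43%), shares close to the background. In a fit of these groups alone 3 were called in all, and with sizes set to the summed reads 2 were higher and 5 lower. Lgmn was at 735, 937 and 834 RPKM in LP and 301, 307 and 415 RPKM in tumour monocytes. All tumour libraries lay below all LP libraries (-1.30 ± 0.15, adjusted p = 2.36e-05). Gla was at 47.9, 46.5 and 39.2 RPKM in LP and 25.5, 23.97 and 27.1 RPKM in tumour, lower without overlap as in macrophages (-0.80 ± 0.13, adjusted p = 0.000647). Npc1, a sterol carrier of the membrane, was the other gene called lower, with means of 9.02 and 5.02 RPKM. Its call was lost without LP library IV, without tumour library I (adjusted p = 0.121) and in a fit of these groups alone.

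The genes called higher in tumour monocytes were Man2b1, Asah1 and Mitf. Man2b1 was at 92.7, 97.7 and 91.9 RPKM in LP and 155, 125 and 154 RPKM in tumour (0.61 ± 0.15, adjusted p = 0.0114), and the call was lost without tumour library I (adjusted p = 0.0561). Asah1 was at 77.2, 64.5 and 66.6 RPKM in LP and 108, 88.5 and 118 RPKM in tumour (0.59 ± 0.14, adjusted p = 0.00949), with an adjusted p of 0.0537 without tumour library V and 0.0728 with sizes set to the summed reads. Mitf was at 0.692, 1.37 and 1.58 RPKM in LP and 2.81, 3.81 and 2.13 RPKM in tumour (1.31 ± 0.30, adjusted p = 0.00792), with 0.0527 without tumour library II and 0.132 in a fit of these groups alone. The Mitf call was also lost without LP library III, and the Asah1 call in a fit of these groups alone (adjusted p = 0.0625). None of the 3 pairs of groups overlapped. Tfe3 differed by -0.35 ± 0.15, adjusted p = 0.163, a value that passed the threshold with sizes set to the summed reads (-0.51, adjusted p = 0.0377), and Tfeb by 0.01 ± 0.30, adjusted p = 1. Epithelial markers (7 genes) summed to 104 to 316 RPKM in tumour monocytes and 19.4 to 212 RPKM in LP monocytes, and B and plasma cell markers (5 genes) to 0.188 to 4.68 RPKM in tumour and 157 to 575 RPKM in LP. Fibroblast markers summed to 0.009 to 0.178 RPKM in tumour and 9.50 to 25.2 RPKM in LP monocytes, and MHC class II markers to 771 to 1201 and 1744 to 2346 RPKM. Their part in these differences was not tested.

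In neutrophils 13 of the 42 genes were lower in tumours, 31.0% beside 19.0% of all genes, and 5 higher, 11.9% beside 13.1%. Under every scaling 10 remained called lower (Cln3, Gaa, Gla, Idua, Lgmn, Mcoln1, Naglu, Npc1, Tfeb and Tpp1) and 1 higher (Asah1). With sizes set to the summed reads 25 were lower and 1 higher, and with libraries centred on their median 10 were lower and 10 higher, so the balance of directions moved with the scale.

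Lgmn was at 126, 104 and 149 RPKM in LP and 29.6, 30.5 and 35.5 RPKM in tumour neutrophils. This is the widest fall of the list in any tumour comparison, without overlap (-1.98 ± 0.15, adjusted p = 4.03e-08). Gaa was at 14.4, 13.1 and 13.8 RPKM in LP and 4.29, 4.93 and 5.42 RPKM in tumour neutrophils (-1.50 ± 0.16, adjusted p = 1.12e-06), also without overlap. Gla averaged 312 ± 32.3 RPKM (SD, n = 3) in LP and 149 ± 17.3 RPKM in tumour neutrophils, so this gene was called lower in tumours in each of the 4 populations. Mcoln1, the cation channel mucolipin 1, averaged 14.6 RPKM in LP and 6.78 RPKM in tumour.

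Asah1 had the largest rise. It was at 32.3, 27.6 and 21.8 RPKM in LP and 73.4, 78.6 and 71.2 RPKM in tumour neutrophils (1.47 ± 0.14, adjusted p = 2.92e-07), and every tumour library was above every LP library. Grn was at 91.0, 81.9 and 62.9 RPKM in LP and 179.5, 133 and 117 RPKM in tumour (0.86 ± 0.17, adjusted p = 0.000771), a call lost with sizes set to the summed reads (adjusted p = 0.0524) and with a fit of these 2 groups alone (0.0502). The factors parted: Tfeb was at 15.5, 19.6 and 17.4 RPKM in LP and 7.61, 6.69 and 7.13 RPKM in tumour neutrophils (-1.29 ± 0.30, adjusted p = 0.00239), while Tfe3 was at 30.4, 30.4 and 22.7 RPKM and 46.4, 49.2 and 41.0 RPKM (0.72 ± 0.15, adjusted p = 0.00102). Neither pair overlapped, but the Tfe3 call was lost with sizes set to the summed reads (0.206). Mitf differed by 0.40 ± 0.30, adjusted p = 0.335. Epithelial markers summed to 151 to 307 RPKM in tumour and 12.7 to 62.2 RPKM in LP neutrophils, and B and plasma cell markers (5 genes) to 0.59 to 20.1 RPKM in tumour and 351 to 1295 RPKM in LP. Fibroblast markers summed to 1.26 to 1.57 RPKM in tumour and 17.9 to 35.1 RPKM in LP, and MHC class II markers to 441 to 855 and 1545 to 3467 RPKM. The neutrophil markers themselves summed to 19767 to 29025 RPKM in tumour and 11437 to 14634 RPKM in LP. The part of these lists in the results was not tested.

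Whether the tumour difference itself varied between populations was tested with interaction terms. Against the mean of the macrophage subsets, 4 genes had a lower tumour difference in monocytes (9.52% beside 3.55% of all genes) and 2 a higher one (4.76% beside 5.64%). Under quantile normalization and with sizes set to the summed reads 8 were lower and 1 higher, and with libraries centred on their median 3 were lower and 2 higher. For Gusb the tumour difference was lower in monocytes (-1.66 ± 0.26, adjusted p = 0.000334), as it was for Lgmn (-1.30 ± 0.19, adjusted p = 0.000138) and Scarb2 (-1.02 ± 0.20, adjusted p = 0.00185). For Atp6v1a it was higher in monocytes (1.15 ± 0.17, adjusted p = 0.000163), where the gene averaged 69.4 RPKM in LP and 83.9 RPKM in tumour. These 4 calls held under every scaling. Atp6v1b2 also differed (0.51 ± 0.16, adjusted p = 0.0454), but was lost without tumour monocyte library V (adjusted p = 0.141) and with sizes set to the summed reads (0.301).

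For neutrophils against macrophages 15 genes had a lower tumour difference (35.7% beside 14.5% of all genes) and 4 a higher one (9.52% beside 11.5%). With sizes set to the summed reads 26 were lower and 1 higher, and with libraries centred on their median 9 were lower and 8 higher. Among genes at 10 RPKM or more Gusb, Lgmn and Gaa led the lower ones, at -2.10 ± 0.26 (adjusted p = 8.52e-06), -1.97 ± 0.19 (4.86e-07) and -1.94 ± 0.20 (9.49e-07). Under every scaling 8 stayed lower (Gaa, Gusb, Idua, Lgmn, Mcoln1, Naglu, Scarb2 and Tpp1) and 1 higher (Tfe3). Tfe3 was at 1.27 ± 0.18 (4.1e-05), being lower in tumour macrophages and higher in tumour neutrophils. Tfeb was at -1.50 ± 0.36 (0.00466), lost under quantile normalization (0.0539). Asah1 (0.88 ± 0.17, 0.000733) and Atp6v1a (0.81 ± 0.17, 0.00156) were higher, and both were lost with sizes set to the summed reads (0.139 and 0.156).

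Between the macrophage subsets 2 of the 42 genes had a higher tumour difference in MHCIIlow than in MHCIIhi macrophages (4.76% beside 1.13% of all genes), and limma called no gene of the list lower (beside 0.326%), with 1 at an unadjusted p under 0.05 and 1 called by voom. They were Psap (1.12 ± 0.24, adjusted p = 0.0221) and Scarb2 (0.92 ± 0.23, adjusted p = 0.0453). Psap held under every scaling and Scarb2 under none but the deposited one, and neither held without tumour MHCIIlow library V (adjusted p = 0.0733 and 0.12). The Psap call was also lost in a fit of these groups alone (adjusted p = 0.177). Psap was kept in 17 of 21 alternatives and Scarb2 in 7 of 21. The count of 2 became 0 without LP MHCIIhi library IV, LP MHCIIhi library V or tumour MHCIIlow library V. It was 1 without LP MHCIIhi library III, LP MHCIIlow library IV, tumour MHCIIhi libraries I or VII or tumour MHCIIlow libraries I or VII, and 4 without LP MHCIIlow library III. The interaction was 0.71 ± 0.42 for Tfeb, -0.04 ± 0.21 for Tfe3 and -0.82 ± 0.42 for Mitf, with adjusted p of 0.542, 0.998 and 0.445. The MHCII marker sums given above differ between the subsets by the gate, and less widely in tumours than in LP, and their part in this result was not tested.

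The macrophage subsets were also compared within each tissue. In LP 9 of the 42 genes were lower in MHCIIlow than in MHCIIhi macrophages, 21.4% beside 5.57% of all genes. No gene was called higher by limma (beside 2.13%), with 1 at an unadjusted p under 0.05 and 1 called by voom, and with sizes set to the summed reads 2 were higher and 9 lower. The 9 were Psap, Gaa, Lipa, Scarb2, Man2b1, Laptm5, Lgmn, Gla and Ppt1, and 8 of them held under every scaling, Lgmn being the exception. Markers of other cells parted between these groups too, MHCIIlow against MHCIIhi: T cell markers summed to 35.6 to 58.1 against 78.3 to 88.9 RPKM, monocyte markers to 2.35 to 6.24 against 15.6 to 19.1 RPKM, and epithelial markers to 18.2 to 23.3 against 4.95 to 17.0 RPKM. Neutrophil markers summed to 23.4 to 31.9 against 32.7 to 39.7 RPKM. The part of these lists in the 9 calls was not tested. Psap was at 3325, 3577 and 3539 RPKM in MHCIIhi and 1114, 1587 and 1358 RPKM in MHCIIlow libraries (-1.38 ± 0.17, adjusted p = 3.48e-05). Gaa was at 41.5, 38.8 and 32.3 RPKM in MHCIIhi and 15.8, 23.9 and 17.6 RPKM in MHCIIlow libraries (-0.99 ± 0.16, adjusted p = 0.000512). Lipa, the acid lipase that hydrolyses cholesteryl esters, was at 200.8, 198 and 192 RPKM in MHCIIhi and 69.8, 128 and 114 RPKM in MHCIIlow libraries (-0.97 ± 0.19, adjusted p = 0.00253). None of these groups overlapped, although the Lipa call was lost in a fit of these 2 groups alone (adjusted p = 0.0792). The factors differed by -0.77 ± 0.30 (Tfeb), 0.03 ± 0.15 (Tfe3) and 0.40 ± 0.30 (Mitf), with adjusted p of 0.133, 0.967 and 0.52.

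In tumours Gla was the single gene called lower in MHCIIlow macrophages (2.38% beside 0.567% of all genes). It was at 44.5, 33.7 and 39.9 RPKM in MHCIIhi and 27.6, 22.6 and 21.5 RPKM in MHCIIlow libraries (-0.72 ± 0.13, adjusted p = 0.0101), and the call was lost without MHCIIlow library V (adjusted p = 0.0668), without MHCIIhi library I and in a fit of these 2 groups alone (0.256). No gene was called higher (beside 0.567%), by limma or voom or at an unadjusted p under 0.05, and 8 were lower at an unadjusted p under 0.05. T cell markers summed to 19.5 to 28.1 RPKM in MHCIIlow and 46.1 to 57.2 RPKM in MHCIIhi libraries of tumours. Monocyte markers summed to 3.92 to 6.06 and 7.69 to 11.7 RPKM. The part of these lists in the Gla call was not tested. Psap was at 3304, 3809 and 3529 RPKM in MHCIIhi and 2816, 3378 and 2720.0 RPKM in MHCIIlow libraries. The groups overlapped, although both came from donor pools I, V and VII and the MHCIIlow library was lower in each pool. With the donor pools as a replicate block the Gla call was kept and 0 were gained. The differences were -0.06 ± 0.30, adjusted p = 1 for Tfeb, -0.01 ± 0.15, adjusted p = 1 for Tfe3 and -0.42 ± 0.30, adjusted p = 0.731 for Mitf.

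Macrophages, as the mean of both subsets, were next set against monocytes of the same tissue. In both tissues 24 of the 42 genes were higher in macrophages (57.1%), beside 12.5% of all genes in LP and 16.8% in tumour. Few were lower, 3 in LP (7.14% beside 17.0%) and 4 in tumour (9.52% beside 21.4%). The median difference was 0.68 in LP and 0.84 in tumour, beside -0.02 and 0.00 over all genes. All 24 higher calls in LP and 21 of 24 in tumour held under every scaling, and no lower call did. In tumour the split was 29 higher and 1 lower under quantile normalization and 30 and 0 with sizes set to the summed reads. Every role of hydrolase took part, with 4 of 6 glycosaminoglycan hydrolases and 7 of 9 lipid genes called higher in each tissue. T cell markers summed to 35.6 to 88.9 RPKM in LP macrophages and 0.078 to 0.732 RPKM in LP monocytes, and to 19.5 to 57.2 RPKM and 0.252 to 2.26 RPKM in tumour. Epithelial markers summed to 4.95 to 23.3 RPKM in LP macrophages and 7.49 to 193 RPKM in tumour macrophages, against the higher monocyte sums given above, with overlap in both tissues. B and plasma cell markers summed to 6.18 to 69.2 RPKM in tumour macrophages, above the tumour monocytes, and to 10.6 to 229 RPKM in LP macrophages, overlapping with the LP monocytes. Neutrophil markers summed to 23.4 to 39.7 RPKM in LP macrophages and 65.0 to 96.3 RPKM in LP monocytes, and to 32.8 to 51.1 and 87.9 to 148 RPKM in tumour. The part of these lists in these differences was not tested.

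Lipa was at 28.7, 27.8 and 26.8 RPKM in LP monocytes, 200.8, 198 and 192 RPKM in MHCIIhi and 69.8, 128 and 114 RPKM in MHCIIlow macrophages (2.34 ± 0.16, adjusted p = 1.58e-09). Naglu, an exo-enzyme of heparan sulphate breakdown, was at 5.49, 8.01 and 5.75 RPKM in LP monocytes, 31.8, 29.9 and 28.4 RPKM in MHCIIhi and 20.2, 20.2 and 22.6 RPKM in MHCIIlow macrophages (1.99 ± 0.19, adjusted p = 9.85e-08). Idua, the iduronidase of the same pathway, was at 4.63, 3.26 and 4.64 RPKM in LP monocytes, 15.1, 14.0 and 16.5 RPKM in MHCIIhi and 9.14, 17.2 and 14.8 RPKM in MHCIIlow macrophages (1.78 ± 0.18, adjusted p = 2.25e-07). Each of the 3 was higher in every macrophage library than in any monocyte library of LP.

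In tumours the order was led by Gusb, at 23.7, 25.8 and 33.1 RPKM in monocytes and 109 to 153 RPKM in the 6 macrophage libraries (2.28 ± 0.18, adjusted p = 5.86e-09). Naglu was at 12.2, 6.55 and 6.35 RPKM in tumour monocytes, 35.7, 42.4 and 46.8 RPKM in MHCIIhi and 32.1, 37.7 and 39.5 RPKM in MHCIIlow macrophages (2.28 ± 0.19, adjusted p = 6.3e-09). Lipa was at 33.0, 25.9 and 33.8 RPKM in tumour monocytes, 117, 153 and 180.2 RPKM in MHCIIhi and 122, 146 and 127 RPKM in MHCIIlow macrophages (2.18 ± 0.16, adjusted p = 1.7e-09). Again no libraries overlapped.

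The genes called lower than in monocytes were Lamp2 and Tfe3 in both tissues, Laptm5 in LP, and Atp6v1a and Npc2 in tumours. Lamp2, the membrane glycoprotein needed for chaperone-mediated autophagy, was at 123, 114 and 103 RPKM in LP monocytes, 81.4, 80.4 and 86.7 RPKM in MHCIIhi and 93.1, 75.3 and 78.4 RPKM in MHCIIlow macrophages (-0.45 ± 0.10, adjusted p = 0.00191). In tumours it was at 135, 99.4 and 119 RPKM in monocytes, 80.7, 86.4 and 94.5 RPKM in MHCIIhi and 74.3, 66.8 and 75.5 RPKM in MHCIIlow macrophages (-0.56 ± 0.10, adjusted p = 0.000158). In neither tissue did the macrophage libraries overlap with the monocytes. Atp6v1a was at 96.4, 73.1 and 82.1 RPKM in tumour monocytes against the tumour macrophage values given above, again without overlap (-0.52 ± 0.12, adjusted p = 0.00172), whereas in LP it was among the genes called higher in macrophages. The Lamp2 and Atp6v1a differences kept their sign under every scaling, but their calls were lost under quantile normalization (adjusted p = 0.292 in LP and 0.436 in tumour for Lamp2, 0.257 for Atp6v1a). Their tumour calls were also lost with sizes set to the summed reads (0.112 and 0.185). Npc2 changed sign and lost its call under quantile normalization (0.837), and the call was kept in 9 of 18 alternatives. It was also lost with sizes set to the summed reads and in a fit of these groups alone. Leaving out tumour monocyte libraries I, II or V, tumour MHCIIhi libraries V or VII or tumour MHCIIlow library VII lost it too. The Laptm5 call in LP was kept in 8 of 18 alternatives (adjusted p up to 0.304).

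Of the factors, Tfe3 was lower in macrophages than in monocytes (-0.40 ± 0.13, adjusted p = 0.0239 in LP and -0.60 ± 0.13, adjusted p = 0.000909 in tumour). Both calls were lost with sizes set to the summed reads (0.119 and 0.123). The LP call was also lost under quantile normalization (0.224) and without monocyte libraries IV (0.122) or V, MHCIIhi library III or MHCIIlow library III. Mitf was higher (1.36 ± 0.26, adjusted p = 0.000486 in LP and 0.74 ± 0.26, adjusted p = 0.0288 in tumour). The tumour call for Mitf was kept in 11 of 18 alternatives. It was lost without tumour monocyte library V (0.177), under quantile normalization (0.0976) and with libraries centred on their median (0.0872). It was also lost without tumour monocyte library I, tumour MHCIIhi library VII or tumour MHCIIlow libraries I or V. Tfeb was at 0.68 ± 0.26, adjusted p = 0.0537 in LP. The LP value passed the threshold without LP MHCIIlow library III (0.0194) or LP monocyte library V and with the donor pools as a replicate block (0.0474). It also passed with sizes set to the summed reads (0.024), a pseudocount of 1 (0.0472), a minimum of 5 RPKM (0.0467) and voom (0.0488). In tumour Tfeb was at 0.88 ± 0.26, adjusted p = 0.0102, lost without tumour monocyte library I (0.0669) and under quantile normalization (0.105).

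Neutrophils were then set against monocytes of the same tissue. In LP 17 genes were higher (40.5% beside 24.1% of all genes) and 11 lower (26.2% beside 30.4%), and in tumour 14 were higher (33.3% beside 23.3%) and 14 lower (33.3% beside 34.9%). Eosinophil markers (3 genes) summed to 21.7 to 42.2 RPKM in LP neutrophils and 1.21 to 1.98 RPKM in LP monocytes, and to 20.6 to 30.8 RPKM and 0.042 to 1.27 RPKM in tumour, and their part in these results was not tested. The splits moved with the scale. With sizes set to the summed reads, 8 were higher and 21 lower in LP and 4 higher and 31 lower in tumour, as the median of all genes moved from -0.24 to -1.07 in LP and from -0.36 to -1.49 in tumour. Under quantile normalization 13 were higher and 14 lower in LP and 8 and 18 in tumour, and with libraries centred on their median 23 and 8 in LP and 18 and 8 in tumour. Called higher under every scaling were 7 genes in LP (Atp6v0d1, Cln3, Gla, Idua, Lamp2, Neu1 and Tfeb) and 4 in tumour (Atp6v0d1, Gla, Lamp2 and Tfeb). Called lower under every scaling were 8 in LP (Asah1, Glb1, Grn, Gusb, Lamp1, Lgmn, Npc2 and Psap) and 8 in tumour (Gaa, Glb1, Gusb, Hexa, Lamp1, Lgmn, Npc2 and Psap).

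The LAMP glycoproteins, which cover the inner face of the lysosomal membrane, went opposite ways. Lamp2 was at 404, 395 and 365 RPKM in LP and 392, 381 and 399 RPKM in tumour neutrophils, above every monocyte library. In tumour the difference from monocytes was 1.74 ± 0.12, adjusted p = 2.15e-10. Lamp1 was at 558, 464 and 492 RPKM in tumour monocytes and 65.9, 16.6 and 32.8 RPKM in tumour neutrophils (-3.93 ± 0.70, adjusted p = 7.61e-05). In LP it was at 477, 505 and 526 RPKM in monocytes and 91.1, 41.5 and 296 RPKM in neutrophils, again without overlap but with a wide spread among the neutrophil libraries.

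Gla had the largest rise of the hydrolases. It was at 47.9, 46.5 and 39.2 RPKM in LP monocytes and 335, 275 and 325 RPKM in LP neutrophils (2.81 ± 0.13, adjusted p = 3.24e-12), and at 25.5, 23.97 and 27.1 RPKM and 141, 138 and 169 RPKM in tumour (2.54 ± 0.13, adjusted p = 7.49e-12). No libraries overlapped. Idua, low in LP monocytes as given above, was at 13.7, 15.8 and 16.4 RPKM in LP neutrophils (1.89 ± 0.20, adjusted p = 2.05e-07). Atp6v0d1, a subunit of the pump's membrane sector, was at 104, 87.2 and 109.7 RPKM in tumour monocytes and 280.5, 281 and 300.3 RPKM in tumour neutrophils (1.53 ± 0.16, adjusted p = 1.4e-07).

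On the lower side Lgmn led in LP, at 735, 937 and 834 RPKM in monocytes and 126, 104 and 149 RPKM in neutrophils (-2.73 ± 0.15, adjusted p = 2.43e-11). In tumour it was at 301, 307 and 415 RPKM and 29.6, 30.5 and 35.5 RPKM (-3.41 ± 0.15, adjusted p = 1.19e-12). Npc2, the soluble sterol carrier that hands cholesterol to NPC1, was at 237, 317 and 304 RPKM in LP monocytes and 45.5, 38.0 and 49.5 RPKM in LP neutrophils (-2.69 ± 0.21, adjusted p = 2.15e-09). In tumour it was at 317, 259 and 259 RPKM and 57.1, 40.5 and 31.3 RPKM (-2.73 ± 0.21, adjusted p = 1.23e-09). Glb1 was at 11.0, 10.3 and 9.24 RPKM in LP monocytes and 1.65, 0.998 and 4.44 RPKM in LP neutrophils (-2.39 ± 0.34, adjusted p = 8.08e-06). These groups were all apart, and for each gene the neutrophil libraries were the lower ones.

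Tfeb was highest in neutrophils. It was at 1.14, 1.18 and 1.83 RPKM in LP monocytes against the 15.5, 19.6 and 17.4 RPKM of LP neutrophils given above (3.69 ± 0.30, adjusted p = 3.43e-09), and at 1.11, 1.499 and 1.49 RPKM in tumour monocytes (2.40 ± 0.30, adjusted p = 9.53e-07 for tumour neutrophils). No macrophage library exceeded 3.69 RPKM. Tfe3 differed by 0.25 ± 0.15, adjusted p = 0.17 in LP, where it passed the threshold with libraries centred on their median (0.54, adjusted p = 0.0104) and, with the opposite sign, with sizes set to the summed reads (-0.58, 0.00268), and by 1.31 ± 0.15, adjusted p = 3.04e-07 in tumour, lost under that scaling (0.305). Mitf differed by 0.73 ± 0.30, adjusted p = 0.0457 in LP and -0.18 ± 0.30, adjusted p = 0.629 in tumour. The LP call was kept in 7 of 15 alternatives. It was lost without LP monocyte library III (0.298) and without LP neutrophil libraries III or V. It was also lost in a fit of these groups alone (0.199), with voom (0.0937), with no filter and with a pseudocount of 1. With sizes set to the summed reads the sign for Mitf turned in LP (-0.10, 0.791), and in tumour Mitf passed the threshold as lower (-1.32, 0.000544).

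**Figure D5:**
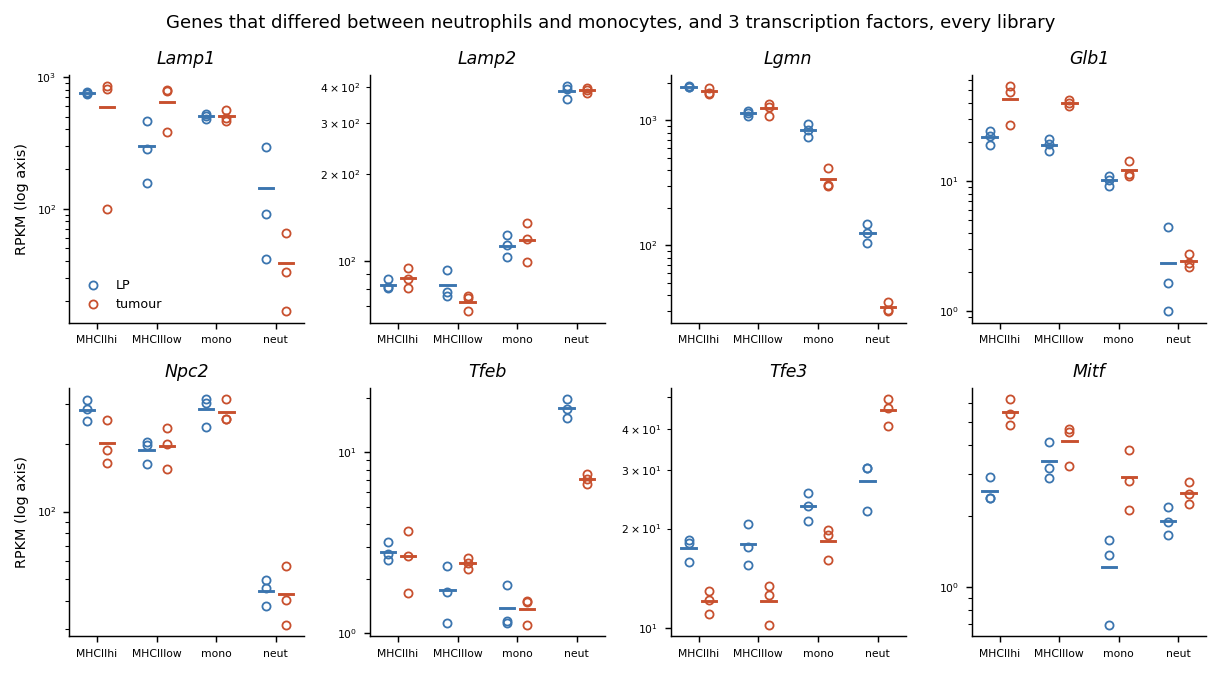
RPKM (log axis, its range set for each gene) of Lamp1, Lamp2, Lgmn, Glb1, Npc2 and the factors Tfeb, Tfe3 and Mitf in every library (circles; lines: group means; blue LP, red tumour; MHCIIhi and MHCIIlow, macrophages; mono, monocytes; neut, neutrophils). Neutrophil means are lowest for Lamp1, Lgmn, Glb1 and Npc2 and highest for Lamp2, Tfeb and Tfe3, and the Lamp1 circles of 1 group can lie far apart.

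Read against the promoter letters, the direction of the called genes among the 12 with CACGTG depended on the comparison. In tumour MHCIIhi macrophages 0 of them were called higher and 3 lower. Of the 25 genes whose window lacks it, 8 were higher and 2 lower (all genes: 8.01% higher, 11.5% lower). In MHCIIlow macrophages 3 of the 12 were higher and 2 lower, as against 9 and 2 (all genes: 11.5% and 11.8%). In tumour monocytes 0 of the 12 were higher and 2 lower, as against 2 and 0 (all genes: 4.86% and 4.43%). In tumour neutrophils 6 of the 12 were called lower and 0 higher, with a median difference of -1.04. Of the 25, 6 were lower and 4 higher, with a median of 0.15 (all genes: 19.0% lower, 13.1% higher). The 6 were Cln3, Gaa, Gla, Lgmn, Mcoln1 and Naglu, and each of these calls held under every scaling. For macrophages against monocytes in LP, 9 of the 12 were called higher and 0 lower, and 11 of the 25 higher and 3 lower (all genes: 12.5% higher, 17.0% lower). In tumour 7 of the 12 were higher and 1 lower, and 14 of the 25 higher and 3 lower (all genes: 16.8% and 21.4%). These are counts over small lists, with no test.

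Other lysosomal genes, 77 on 5 lists of which 73 were tested, gave the setting for the 42. Over all genes tested, 8.01% were higher and 11.5% lower in tumour MHCIIhi macrophages, and 11.5% higher and 11.8% lower in the MHCIIlow subset. Of 19 other hydrolases and activators, 6 were higher and 2 lower in tumour MHCIIhi macrophages and 11 higher and 4 lower in the MHCIIlow subset, with medians of 0.19 and 0.73. Among 13 further V-ATPase genes 1 was higher and 2 lower in MHCIIhi and 2 higher and 3 lower in MHCIIlow macrophages, with medians of -0.33 and -0.32. The 16 other membrane proteins had 1 higher and 2 lower, and 1 higher and 1 lower. The 10 genes of mannose-6-phosphate sorting, which delivers hydrolases to lysosomes, had 2 lower in MHCIIhi, and 1 higher and 1 lower in MHCIIlow macrophages. Of the 15 genes of mTORC1 and TFE3 control, 2 were higher and 1 lower in MHCIIhi and 3 lower in MHCIIlow macrophages. Over the 73 genes 10 were higher and 9 lower in MHCIIhi and 15 higher and 12 lower in MHCIIlow macrophages, with medians of 0.10 and -0.07, beside 0.14 and 0.32 for the 42. The 73 include genes of sorting and of mTORC1 control, which the 42 do not, so these medians belong to lists of unlike make-up.

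In neutrophils against monocytes the same lists parted by role. Over all genes 24.1% were higher and 30.4% lower in LP, and 23.3% higher and 34.9% lower in tumour. Of the 13 other V-ATPase genes 9 were higher and 2 lower in LP, with a median of 0.77, and of the 19 other hydrolases 4 were higher and 9 lower, with a median of -0.76. In tumour the counts were 8 and 2 for the pump (0.55) and 3 and 12 for the hydrolases (-1.06). Among 15 genes of mTORC1 and TFE3 control, 8 were lower and 1 higher in tumour than in LP neutrophils (median -0.68), beside 19.0% lower and 13.1% higher of all genes. In macrophages against monocytes 10 of the 19 other hydrolases were higher and 1 lower in LP (beside 12.5% and 17.0% of all genes), and 12 and 1 in tumour (beside 16.8% and 21.4%). The neutrophil counts share the dependence on scale described above.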

How the data were processed

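RNA of sorted cells was amplified by a modified SMARTSeq v2 protocol, and libraries were sequenced as paired ends without strand marking. Per the labels and methods, the authors aligned reads to GRCm38 with STAR 2.3, counted them with featureCounts 1.5, removed low genes and deposited log2 RPKM values made with edgeR. For all 17301 genes whole reads could be recovered from these values (tolerance 1e-05 reads, a prior count of 0.25 being assumed), and their sums are the depths given. Symbols were matched for 17190 identifiers. The deposited log2 values were fitted in R 4.3.3 with limma 3.58.1 (8 group means, 24 libraries, empirical Bayes with a trend), with Benjamini-Hochberg adjustment over the 12878 genes with a mean of at least 1 RPKM in at least 1 group, and a gene was called at an adjusted p under 0.05. Values after ± are standard errors unless SD is written, and p-values measure the spread between libraries of pooled mice. The script was tested on simulated data.

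Genes given with single tests are the 3 largest called rises and falls of each comparison, among those without overlap and with at least 10 RPKM in the higher group (no overlap rule for differences between tumour differences), and the 3 transcription factors. Members and lists were chosen with earlier results of these data known. Libraries of 1 donor number and tissue may share mice: over 29 such pairs deviations from group means correlated at -0.066 to 0.25 (median 0.017), and the consensus correlation was 0.048. The labels' donor number is the source of this pairing. Alternatives were a pseudocount of 1, no filter, a minimum of 5 RPKM, 2 further scalings, fits of the compared libraries alone, the replicate block, voom on recovered reads, each library left out in turn and, chosen after seeing the data, library sizes set to the summed reads.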

Additional observations from a re-analysis of the deposited data

Results flagged for a closer look

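The tumour minus LP difference of 27 gene and population pairs differed between populations by the interaction term of the limma fit, and each is given as a difference of log2 fold changes with its standard error. Between macrophage subsets (MHCIIlow minus MHCIIhi) these were Psap (1.12 ± 0.24) and Scarb2 (0.92 ± 0.23).

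For monocytes minus macrophages, the difference was -1.66 ± 0.26 for Gusb, -1.30 ± 0.19 for Lgmn, -1.02 ± 0.20 for Scarb2 and -0.59 ± 0.18 for Man2b1, which passed the threshold in 9 of 27 alternatives (adjusted p up to 0.151). It was 1.15 ± 0.17 for Atp6v1a and 0.51 ± 0.16 for Atp6v1b2, the pair of pump genes in this set, of which Atp6v1b2 passed in 10 of 27 (up to 0.301).

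For neutrophils minus macrophages, 10 hydrolases had a negative term: -2.61 ± 0.89 for Sgsh, -2.10 ± 0.26 for Gusb, -1.97 ± 0.19 for Lgmn, -1.94 ± 0.20 for Gaa, -1.64 ± 0.26 for Naglu, -1.09 ± 0.14 for Tpp1, -1.06 ± 0.30 for Arsa, -1.02 ± 0.25 for Idua, -0.56 ± 0.14 for Hexa and -0.53 ± 0.18 for Man2b1. The Sgsh term passed in 15 of 27 alternatives and was lost without tumour neutrophil library II (adjusted p = 0.0984), where the level was 0.058 RPKM against 0.874 and 0.799 RPKM in the other tumour neutrophil libraries. The Man2b1 term passed in 14 of 27 (up to 0.402). Of the exon bases of Sgsh, 21.6% lie opposite Card14 and of those of Arsa 18.8% opposite another gene, and the libraries do not mark strand. The membrane proteins were at -1.32 ± 0.20 for Scarb2, -1.23 ± 0.28 for Mcoln1, -0.93 ± 0.25 for Cln3 and -0.54 ± 0.15 for Laptm5. Tfeb was at -1.50 ± 0.36. The genes with a positive term were Tfe3 (1.27 ± 0.18), Asah1 (0.88 ± 0.17), Atp6v1a (0.81 ± 0.17) and Atp6v1b2 (0.50 ± 0.16), which changed sign with sizes set to the summed reads (adjusted p = 0.893). In each of these comparisons tissue, Apc genotype, DSS treatment and preparation cannot be told apart.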

How the results depend on the processing

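Of the 231 counts of called genes recomputed under alternatives, 209 stayed within 1.5 times the reported one. Leaving out 1 library at a time gave 8 to 12 called genes for tumour against LP in MHCIIhi macrophages, 0 to 1 for MHCIIlow against MHCIIhi macrophages in tumour and 0 to 4 for the tumour difference between the subsets. Fits of the compared libraries alone gave 3 for monocytes, 0 for the subsets in tumour and 1 for the tumour difference between them, and voom gave 2 and 4 for the last pair. For the tumour difference between subsets the count was 1 with libraries centred on their median and 1 with sizes set to the summed reads. Mitf in LP neutrophils against monocytes turned to -0.10 with summed reads. The causes were not tested. With the donor pools as a replicate block, the counts were 16 for MHCIIhi and 18 for MHCIIlow macrophages in tumour against LP, where Ppt1 lost its call. Tfeb in LP macrophages against monocytes gained one (0.68, adjusted p = 0.0474), as did Laptm5 for the tumour difference between subsets, and no other call changed with the replicate block. The scale limits the neutrophil comparisons: the median of the 42 genes in LP neutrophils against monocytes was 0.61 with libraries centred on their median and -0.51 with summed reads. With 3 libraries a group, calls near the threshold depended on single libraries, and examples are given beside the genes with single tests.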
